A study of Rattus norvegicus with 2 samples.

Results

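The genes described here encode the working parts of the lysosome. They were taken by symbol: every gene named Atp6v0, Atp6v1 or Atp6ap (the vacuolar proton pump and its accessory proteins), Cts followed by 1 letter (cathepsins) and Lamp followed by a digit (lysosome-associated membrane proteins). This gave 46 of the 25399 genes in the files, 25 of the proton pump, 17 cathepsins and 4 membrane proteins, by a rule that reads symbols only; the set itself was taken up with earlier results of these data known. Their levels were compared between the kinds of cell obtained from the optic nerve and between WT and Nuc1 rats.

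The lysosome is the organelle in which cells break down proteins, lipids and other molecules delivered by endocytosis and autophagy. The vacuolar ATPase acidifies it: its V1 sector in the cytoplasm hydrolyses ATP, and its V0 sector in the membrane carries protons inward. The acid activates the cathepsins, proteases of the lumen, while heavily glycosylated LAMP proteins line the inner face of the membrane. In retinal pigment epithelium and astrocytes, βA3/A1-crystallin, the product of Cryba1, is known as a lysosomal protein needed for the activity of the pump.

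For each genotype 1 droplet library was made from optic nerve: WT rats were of the Sprague Dawley strain, and Nuc1 rats carry a spontaneous germline insertion in Cryba1. The labels give postnatal day 7 for both libraries and name no treatment. The series' title speaks of a mixed culture, and the study's methods describe primary mixed glial cultures prepared from optic nerve. Its astrocyte cultures came from pups 2 days old, and how this relates to the labelled day 7 was not stated. The number of animals pooled was not given in the sources used here. The WT library held 34517542 unique molecular identifiers (UMIs, 1 for each captured transcript molecule) in 2107 barcodes, of which 1968 cells were kept, and the Nuc1 library 35794685 UMIs in 1929 barcodes, of which 1793 were kept; 2 barcodes occurred in both. Cryba1 itself had 0 UMIs in both libraries, which allows up to 3 in each, so it could not check the labels.

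Cells were grouped by marker genes, none of them a member of the lysosome set. Fibroblast-like cells (Col1a1, Col1a2, Col3a1, Dcn, Lum) made up 88.9% of the kept WT cells and 70.5% of the Nuc1 cells (1749 and 1264 cells). Astrocyte-like cells (Aqp4, Mlc1, Fabp7, Gfap, S100b, Mt3) numbered 98 and 298. Cells with motile-cilia genes (Dynlrb2, Tekt1 and others, called cilia-like here) numbered 16 and 117, oligodendrocyte-like cells 43 and 5, and macrophage-like cells 11 and 1. A further 36 and 70 cells met the markers of more than 1 group and were set aside, and 15 and 38 met none. Levels are given as CPM: a gene's UMIs in a group of cells were divided by all UMIs of that group and multiplied by 1000000. UMIs from a 3′ kit count molecules and do not scale with transcript length. With 1 library per genotype there is no replicate, so no difference was tested; 95% intervals cover counting error only.

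Of the 46 members, 26 had at least 1000 UMIs over both libraries (15 of the pump, 9 cathepsins and 2 membrane proteins), 12 had between 1 and 221, and 8 had 0, which allows up to 3 UMIs each. Those at 0 were Atp6v1g3, Ctse, Ctsg, Ctsj, Ctsm, Ctsq, Ctsr and Lamp5. Ctsg is a protease of neutrophil granules, Lamp5 is expressed mainly in neurons, and Ctsj, Ctsm, Ctsq and Ctsr belong to a cluster expressed in the rodent placenta. The most abundant member was the cysteine protease Ctsl with 72585 UMIs, followed by the pump subunits Atp6v1g1 (43219) and Atp6v0c (43014), then Lamp1 (36037) and Ctsb (32398).

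Promoter sequences were matched by symbol to RefSeq for 37 of the 46 members (build GRCr8, 250 bases before to 50 bases after the start). The E-box core CACGTG, which lies inside the CLEAR element recognised by TFEB, the transcription factor of lysosomal genes, was searched on both strands, together with the longer forms TCACGTGA and CACGTGAC. CACGTG occurred in 5 of the 22 windows of members with at least 300 UMIs (22.7%) and in 0 of the 15 windows of rarer members, against 6.42% of all 33469 promoters and 8.45% of the 12776 promoters of genes in the files. TCACGTGA occurred in 4 of the 22 (18.2%), against 0.777% of all promoters and 1.32% of those of genes in the files. CACGTGAC occurred in 4 of the 22 as well, against 1.85% and 3.15%. Over all 37 members with a window, CACGTG occurred in 13.5%, and TCACGTGA and CACGTGAC each in 10.8%. The promoters compared were not limited to genes with UMIs. The windows with CACGTG belonged to Lamp1 with 5 matches, Ctsd with 2, and Ctsf, Atp6v0d1 and Atp6v0e1 with 1 each. The 4 windows shown first hold matches before the start of the gene, and Ctsk is shown because its window holds none and its level differed widely between fibroblast-like and astrocyte-like cells. CACGTG is in capitals.
Lamp1 (chr16:83075086-83075256, minus strand): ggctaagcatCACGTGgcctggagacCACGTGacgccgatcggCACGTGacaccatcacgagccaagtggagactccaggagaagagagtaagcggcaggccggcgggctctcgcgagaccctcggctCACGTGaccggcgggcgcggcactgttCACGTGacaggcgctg
Ctsd (chr1:206968822-206968911, minus strand): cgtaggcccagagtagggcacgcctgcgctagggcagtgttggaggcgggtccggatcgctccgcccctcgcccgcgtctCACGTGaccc
Atp6v0d1 (chr19:50357249-50357338, minus strand): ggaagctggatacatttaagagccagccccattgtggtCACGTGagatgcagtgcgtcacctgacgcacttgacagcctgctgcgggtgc
Ctsf (chr1:211582020-211582109, plus strand): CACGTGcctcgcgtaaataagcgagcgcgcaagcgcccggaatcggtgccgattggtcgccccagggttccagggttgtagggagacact
Ctsk (chr2:185747458-185747547, plus strand): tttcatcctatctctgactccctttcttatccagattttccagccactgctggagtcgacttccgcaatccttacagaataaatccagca
The second Ctsd match lies upstream of the stretch shown, and that of Atp6v0e1 lies after the start. A match of letters is a description and not a bound site. A window without a match says only that these letters do not occur in it.

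**Figure D1:**
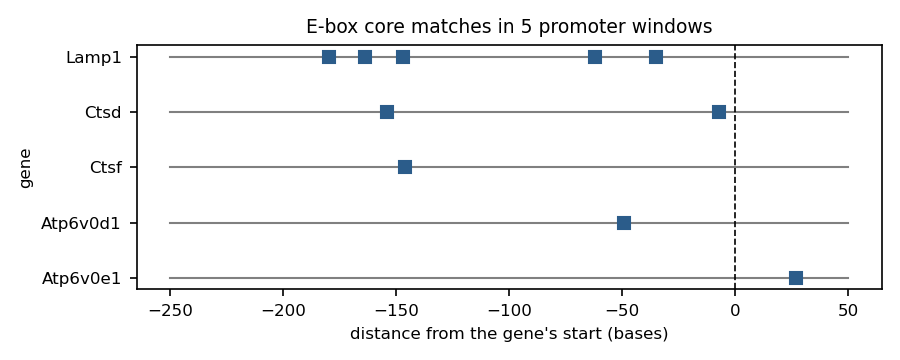
Positions of CACGTG in the 5 member windows that hold it, by distance from the gene's start in bases. Lamp1 has 5 matches, all before its start, and the match of Atp6v0e1 lies after the start.

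The 3 classes did not follow the same order across cell groups. Summed over its members, the proton pump was carried at 2474 CPM in WT and 2638 in Nuc1 fibroblast-like cells and at 2867 and 3140 in astrocyte-like cells. In cilia-like cells it stood at 2848 and 3184 and in oligodendrocyte-like cells at 3169 and 3699. The pump thus differed by less than 1.5-fold between these 4 groups within each library, whereas macrophage-like cells held 6746 and 7770.

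Cathepsins spread far more widely. They summed to 2723 CPM in WT and 2874 in Nuc1 fibroblast-like cells, and to 2396 and 2881 in astrocyte-like cells. Levels were lower in cilia-like cells (1367 and 1717) and in oligodendrocyte-like cells (560 and 1127, the second from 5 cells of which 1 had 3599 CPM against a median of 435), and reached 24375 and 23441 in macrophage-like cells. The membrane proteins, nearly all Lamp1 and Lamp2, summed to 659 and 666 CPM in fibroblast-like cells and to 1368 and 1616 in astrocyte-like cells. They stood at 1215 and 1569 in cilia-like, 612 and 1010 in oligodendrocyte-like and 2075 and 1894 in macrophage-like cells.

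**Figure D2:**
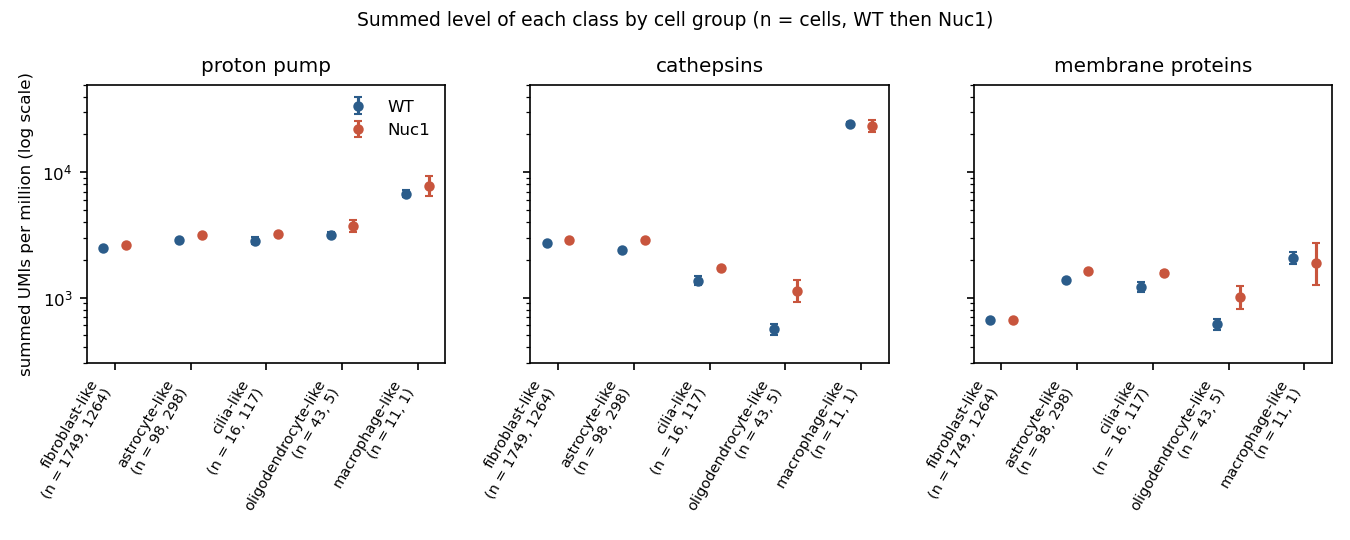
Summed CPM of each class (log scale) in each cell group, with a pair of points for the WT and Nuc1 libraries, 95% counting intervals and the number of cells under each group. Cathepsins range from 560 in WT oligodendrocyte-like to 24375 in WT macrophage-like cells, while the pump stays between 2474 and 3699 outside macrophage-like cells.

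In astrocyte-like against fibroblast-like cells, the gene furthest above among the 6 most abundant members of each class was Lamp1, in both libraries. It encodes the major glycoprotein of the lysosomal membrane. It stood at 979 CPM in WT astrocyte-like and 364 in WT fibroblast-like cells, 2.69-fold higher (95% interval 2.57 to 2.81), and at 1097 and 345 in the Nuc1 library, 3.18-fold higher. Per single cell, the median Lamp1 level was 984 CPM in WT and 1088 in Nuc1 astrocyte-like cells against 356 and 326 in fibroblast-like cells, and the middle 50% of the cells of the groups did not overlap. With every cell thinned to 5000 UMIs, Lamp1 was found in 97.9% and 98.6% of astrocyte-like and in 81.7% and 80.9% of fibroblast-like cells.

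Past 1.5-fold in both libraries, 6 of the 26 members that could be counted were higher in astrocyte-like cells and 1 was lower; over all genes 14.1% were higher and 25.5% lower. The 6 were Lamp1, Ctsc, Ctsh and the pump genes Atp6v0b, Atp6v1a and Atp6v1b2. The median log2 ratio over both libraries was 0.37 for the 26 members and -0.28 for all genes. Ctsh, an aminopeptidase, was at 396 and 466 CPM in astrocyte-like against 206 and 240 in fibroblast-like cells. Ctsc, the dipeptidyl peptidase that activates granule proteases, was at 106 and 61.6 CPM against 18.8 and 17.4. Its share of cells after thinning was 29.9% and 24.2% in astrocyte-like and 8.60% and 8.45% in fibroblast-like cells.

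Atp6v1a and Atp6v1b2 encode the A and B subunits that form the ATP-hydrolysing ring of V1. Atp6v1a stood at 117 and 82.1 CPM in astrocyte-like against 59.7 and 53.4 in fibroblast-like cells. Atp6v1b2 stood at 53.3 and 54.8 against 24.7 and 29.3. The V1 sector was 0.30 log2 units higher in WT astrocyte-like than fibroblast-like cells and 0.37 higher in the Nuc1 library, and the V0 sector 0.10 and 0.16 higher. Atp6v0c, which forms the proton-binding ring, was at 556 and 574 CPM in astrocyte-like and at 599 and 659 in fibroblast-like cells, a difference in the other direction.

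Ctsk, a collagen-cleaving protease best known from osteoclasts, was the 1 member lower. Fibroblast-like cells held 472 CPM (WT) and 398 CPM (Nuc1), and astrocyte-like cells 6.20 and 3.22, 76.1-fold and 124-fold lower. It was likewise at 2.45 and 4.08 CPM in cilia-like and at 6.03 and 0 in oligodendrocyte-like cells. After thinning, 88.4% and 82.3% of fibroblast-like cells had a Ctsk UMI, against 0 of 97 WT astrocyte-like cells (upper limit 3.73%) and 5 of 293 Nuc1 astrocyte-like cells (1.71%). Median depth was 13706 and 15173 UMIs per fibroblast-like cell and 24488 and 22517.5 per astrocyte-like cell. Per 1000 UMIs of the 5 fibroblast markers, Ctsk had 42.3 and 59.1 UMIs in fibroblast-like, 36.2 and 50.3 in astrocyte-like, 32.3 (1 UMI) and 102 (11 UMIs) in cilia-like and 105 (4 UMIs) in WT oligodendrocyte-like cells. The part of free RNA in these few UMIs was not tested. Over the alternatives, the log2 ratio of fibroblast-like over astrocyte-like cells ranged from 4.34 to 7.62 in WT and from 4.13 to 7.61 in Nuc1, lowest in both with no cell set aside. Of the 4 osteoclast markers (Acp5, Ocstamp, Calcr and Mmp9), 2 were at 0 in WT fibroblast-like cells. The list summed to 36.3 CPM there, nearly all of it Acp5 (34.9 CPM).

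**Figure D3:**
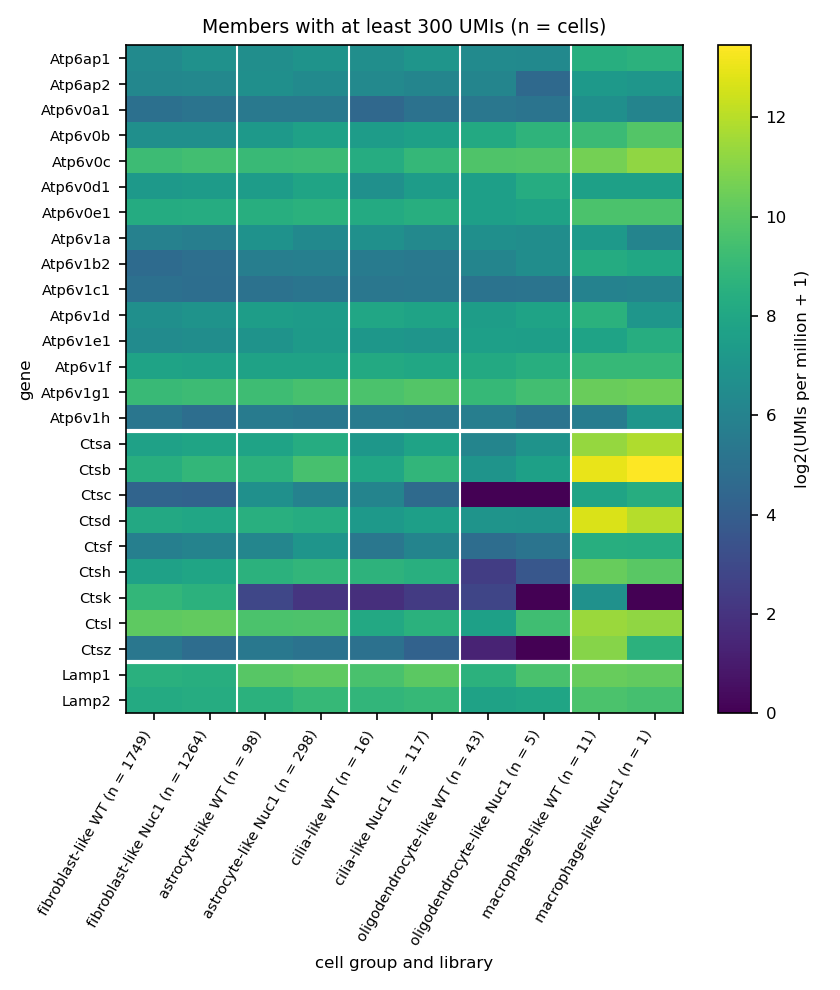
Level of each member with at least 300 UMIs, as log2(CPM + 1), in every cell group and library. Ctsk is bright in both fibroblast-like columns and dark in astrocyte-like and cilia-like columns, and Ctsb, Ctsd and Ctsa are brightest in macrophage-like cells.

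Cilia-like cells held the proton pump at a level close to that of astrocyte-like cells, and fewer cathepsins. Of 25 members counted in both libraries, 0 were higher and 5 were lower than in astrocyte-like cells past 1.5-fold, against 15.4% and 9.23% of all genes. All 5 were cathepsins (Ctsb, Ctsc, Ctsd, Ctsf and Ctsl), of 8 counted. Ctsl stood at 272 and 381 CPM in cilia-like against 800 and 827 in astrocyte-like cells. Ctsd, the aspartic protease of the lysosome, stood at 154 and 189 against 353 and 318. Ctsh, at 414 and 353 CPM against 396 and 466, was higher in 1 library and lower in the other. The V1 subunits Atp6v1g1 (791 and 927 against 624 and 729 CPM) and Atp6v1d (245 and 219 against 177 and 167) were higher in cilia-like cells in both libraries, within 1.5-fold.

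A rare C subunit of V1, Atp6v1c2, reached its highest level in cilia-like cells, 36.7 CPM (15 UMIs) for WT and 11.5 (31 UMIs) for Nuc1. It stood at 2.48 and 1.82 in astrocyte-like and 1.82 and 3.18 in fibroblast-like cells. In WT it fell under the minimum of expected UMIs, so the count of members higher than in astrocyte-like cells left it out. Its annotated span overlaps Nol10, and the strand used in counting was not given in the sources used here, so its reads cannot be told apart from those of the neighbour. The same limit holds for Ctsa (Neurl2, Pltp), Ctsz (Nelfcd), Ctsd (Tnni2), Ctsk (Eef1e1-ps1), Atp6v1h (Rgs20), Atp6ap1l (Rps23) and Atp6v0a4 (Tmem213 and others). Spans of Lamp1, Atp6v0d1, Atp6v0e1, Atp6v1a and Atp6v1b2 overlap genes without a name beyond a LOC number. Atp6v1c1, the common C subunit, was at 33.1 and 37.0 CPM in astrocyte-like and 30.3 and 27.6 in fibroblast-like cells.

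Oligodendrocyte-like cells of the WT library (43 cells) held less of each of the 8 cathepsins counted than astrocyte-like cells, while pump genes varied in both directions. Of 25 members, 3 were higher (Atp6v0b, Atp6v0c and Atp6v1e1) and 11 were lower, against 33.5% and 26.8% of all genes. Ctsh was furthest apart, at 4.53 CPM (3 UMIs) against 396 in astrocyte-like cells, and Ctsl stood at 201 against 800. Atp6v0c stood at 869 CPM, above the 556 of astrocyte-like cells. The Nuc1 group had 5 cells, in 1 of which Lamp1 reached 1982 CPM against a median of 333 and the cathepsin sum 3599 against 435, and its values are given for completeness.

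Macrophage-like cells had the highest level of most members. Against WT fibroblast-like cells, 19 of 22 members counted were higher and 1 (Ctsk) lower, while 9.65% of all genes were higher and 60.2% lower. Against WT astrocyte-like cells 20 of 25 were higher and 0 lower (11.8% and 55.3% of all genes). The macrophage-like group held few UMIs, so only 3950 and 3881 genes reached the expected count in these 2 comparisons. That rule favours genes abundant in the larger group, which limits these shares as a reference. Ctsb, the cysteine protease with endo- and exopeptidase activity, stood at 8183 CPM against 345 in WT fibroblast-like cells, 23.7-fold higher. Ctsd stood at 6663 against 277 (24.0-fold) and Ctsz, a carboxypeptidase, at 2082 against 39.2 (53.1-fold). Ctsa, the protective protein of β-galactosidase and neuraminidase, stood at 2554 against 206 (12.4-fold). The pump genes stood less far above: Atp6v0c was 2.64-fold, Atp6v1g1 2.38-fold and Atp6v0d1 1.35-fold higher.

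These levels rest on 11 WT cells and 1 Nuc1 cell. They ranged from 1465 to 22784 UMIs in depth in the WT library, and the shallowest WT cell had 0 cathepsin UMIs, 14 pump UMIs and 16 UMIs of 5 macrophage genes. The other 10 WT cells had between 162 and 672 cathepsin UMIs each, and the Nuc1 cell 359. In the Nuc1 cell Ctsb was at 11166 CPM and Ctsd at 3983. For both genes the 5 groups came in the same order in both libraries: macrophage-like, astrocyte-like, fibroblast-like, cilia-like and oligodendrocyte-like. Ctsz was lower in the Nuc1 cell, at 392 CPM from 6 UMIs, against a per-cell median of 2195 in WT macrophage-like cells. Ctss, a cathepsin of antigen-presenting cells, had 31 UMIs in all, of which 23 were in the 11 WT macrophage-like cells (160 CPM). Ctsk stood at 111 CPM in WT macrophage-like cells, from 16 UMIs, with 1455 UMIs per 1000 of fibroblast markers, a ratio far above that of fibroblast-like cells; in 4 of the 11 cells a UMI was found.

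Between genotypes, most members in astrocyte-like cells lay within 1.5-fold. Of 27 members counted, 3 were higher in the Nuc1 library (Atp6v1g2, Ctsb and Ctsf) and 2 were lower (Ctsc and Ctsk), while 7.97% of all genes were higher and 18.7% lower. The median log2 ratio of the members was 0.15 and that of all genes -0.15, both on the scale of total UMIs. Scaling by TMM set its zero at a log2 ratio of -0.20, and relative to it 8 members were higher and 1 lower in place of 3 and 2, while 13.5% of all genes were higher and 11.5% lower. The class sums differed by a log2 ratio of 0.13 (pump), 0.27 (cathepsins) and 0.24 (membrane proteins).

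Ctsb gave the clearest difference of the abundant members. In astrocyte-like cells it stood at 402 CPM in the WT library (972 UMIs in 98 cells) and 727 in the Nuc1 library (5191 UMIs in 298 cells), a log2 ratio of 0.86 (0.76 to 0.96). Per cell, the median was 374 CPM in WT (middle 50% of cells 272 to 548) and 693 in Nuc1 (475 to 905), so that the distributions overlapped. Ctsb was also higher in Nuc1 fibroblast-like cells, 472 against 345 CPM (0.45, within 1.5-fold), and in Nuc1 cilia-like cells, 459 against 250 (0.88, 0.59 to 1.18).

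Ctsf, a cysteine protease with a long propeptide, was at 71.1 CPM in WT and 128 in Nuc1 astrocyte-like cells (0.85, 0.62 to 1.10). Ctsa stood at 221 and 315 (0.51) and Lamp2 at 389 and 518 (0.41). Lamp1 stood at 979 and 1097 (0.17), Ctsl at 800 and 827 (0.049, with an interval of -0.025 to 0.12 that includes 0). Over the alternatives Ctsl ranged from -0.098 to 0.88, the highest with at most 10% mitochondrial UMIs, where Ctsc was at -1.77. Ctsc was lower, at 61.6 CPM in Nuc1 against 106 in WT (-0.79, -1.01 to -0.56), as it was in cilia-like cells, at 23.7 against 66.1 (-1.48). Of the pump, Atp6v0d1 (0.43), Atp6v0b (0.41) and Atp6v1e1 (0.41) were higher and Atp6v1a (-0.51) lower, and these 4 did not pass 1.5-fold. Ctsk rested on 15 and 23 UMIs, with an interval of -1.95 to 0.10 that includes 0. Atp6v1g2, a G subunit typical of neurons, was at 5.79 CPM in WT and 15.3 in Nuc1 (14 and 109 UMIs), and its span overlaps Nfkbil1. Its log2 ratio of 1.40 became 2.93 after thinning, which left a UMI of it in only 1 of 97 WT and 22 of 293 Nuc1 cells. Over cilia-like cells, 5 of 26 members were higher in Nuc1 (Atp6v0c, Atp6v0d1, Ctsa, Ctsb and Ctsf) and 3 lower (Atp6v1c2, Ctsc and Ctsz), against 14.2% and 12.5% of all genes.

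The astrocyte-like groups also differed in other respects. The summed astrocyte markers were at 38500 CPM in WT and 53201 in Nuc1, the fibroblast markers at 174 and 67.2, oligodendrocyte markers at 166 and 95.6 and dividing markers at 359 and 130. Macrophage markers were at 2.07 and 1.96 CPM, with 7 and 4 of the 11 at 0. The median share of mitochondrial UMIs was 12.6% and 10.8%. The part of these differences in the ratios of the members was not tested. With cells limited to at most 10% mitochondrial UMIs, 21 WT and 126 Nuc1 astrocyte-like cells remained and the cathepsin log2 ratio was 0.64.

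**Figure D4:**
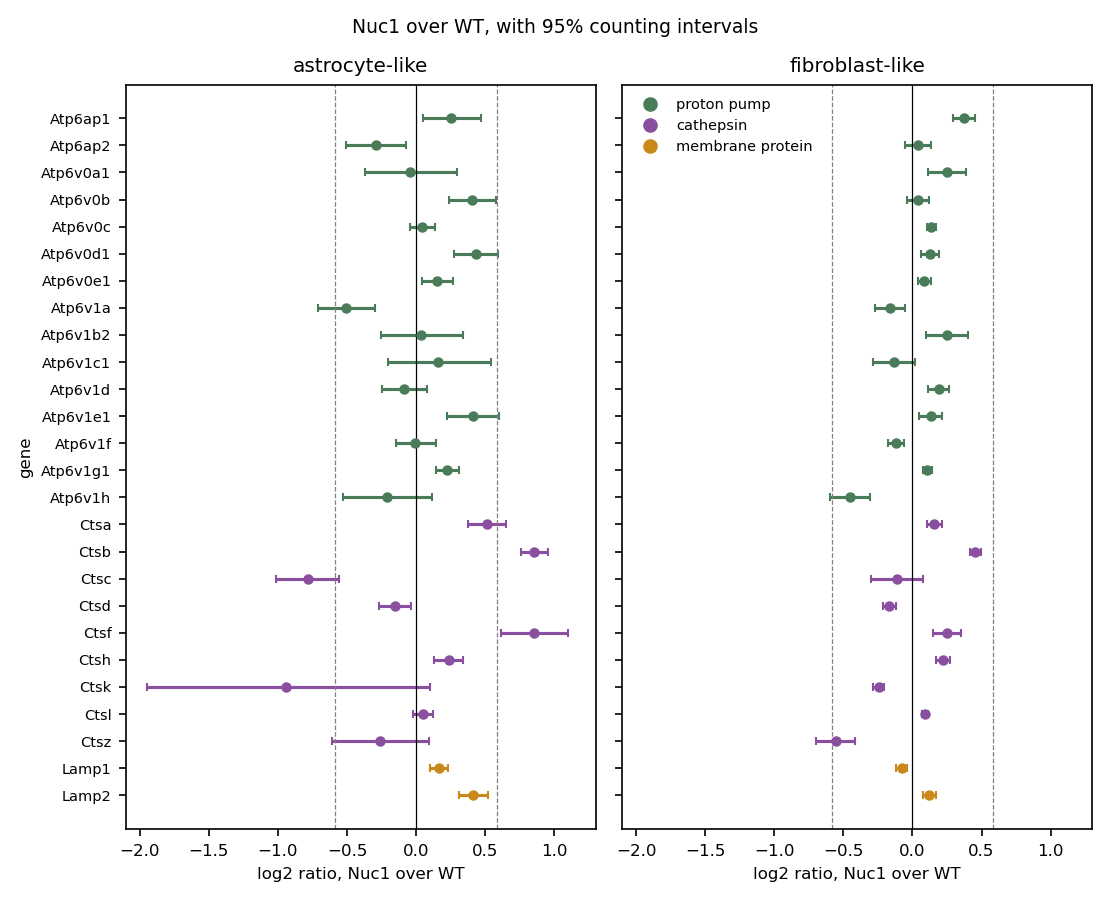
Log2 ratio of Nuc1 over WT for each of the 26 abundant members, in astrocyte-like cells (left) and fibroblast-like cells (right), with 95% counting intervals and dashed lines at 1.5-fold. Ctsb lies right of 0 in both panels (0.86 and 0.45), and no point of the fibroblast-like panel passes a dashed line.

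In fibroblast-like cells the genotypes differed less. Of 29 members counted, 2 were higher in the Nuc1 library (Atp6v1c2 and Atp6v1g2, each with few UMIs) and 1 lower (Ctsw), below the 12.9% and 10.8% of all genes. Class sums differed by a log2 ratio of 0.093 (pump), 0.077 (cathepsins) and 0.015 (membrane proteins). Among abundant cathepsins, Ctsb was higher (0.45), Ctsh higher (0.22), and Ctsk (-0.25) and Ctsd (-0.17) lower, all within 1.5-fold. Ctsz, at 39.2 CPM in WT and 26.6 in Nuc1 (-0.56), came closest to that fold. The 5 fibroblast markers themselves summed to 11143 CPM in WT and 6738 in Nuc1 fibroblast-like cells.

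Within kinds of fibroblast-like cell, named by their pairs of genes only, cathepsins took other values. Cells with Ccn3 and Rspo3 numbered 336 in WT and 60 in Nuc1, and their cathepsin sum was lower in the Nuc1 library (2426 against 3276 CPM, -0.43). Cells with Actg2 and Penk (163 and 42) gave 1688 against 2194 (-0.38), and dividing cells (173 and 84) gave 1627 against 1820 (-0.16). Cells with Cldn11 and Thbd (258 and 291) gave 2727 against 2735 (-0.0041). Cells of no single kind (817 and 690) gave 3142 against 2988 (0.072).

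Ctsd was lower in the Nuc1 library in dividing cells (111 against 203 CPM), in Ccn3/Rspo3 cells (175 against 300.1), in Actg2/Penk cells (160 against 287) and in Cldn11/Thbd cells (176 against 250). In cells of no single kind it stood at 289 against 304. Ctsh stood at 128 against 287 CPM in Ccn3/Rspo3 cells and 81.6 against 134 in Actg2/Penk cells. Members past 1.5-fold were 0 higher and 5 lower of 26 in Ccn3/Rspo3 cells (8.24% and 16.4% of all genes), 0 and 3 of 26 in Actg2/Penk cells (9.45% and 15.9%) and 1 and 2 of 27 in dividing cells (8.44% and 11.2%). In Cldn11/Thbd cells 2 were higher and 1 was lower of 27 (11.1% and 10.5%). These shares were near or below those of all genes.

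Cells with Inmt and Cyp26b1 were nearly all from the Nuc1 library (2 WT and 97 Nuc1 cells) and were the richest fibroblast-like kind in cathepsins. Their cathepsin sum was 4369 CPM against 2727 in Nuc1 Cldn11/Thbd cells, and 11 of 27 members were higher and 1 lower (15.5% and 15.4% of all genes). Ctsh stood at 661 against 161 CPM (4.10-fold), Ctsd at 479 against 176 and Ctsl at 1782 against 1164. Without this kind the cathepsin log2 ratio of Nuc1 over WT in fibroblast-like cells was 0.015 in place of 0.077, and Ctsh was at 206 CPM in WT and 205 in Nuc1.

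**Figure D5:**
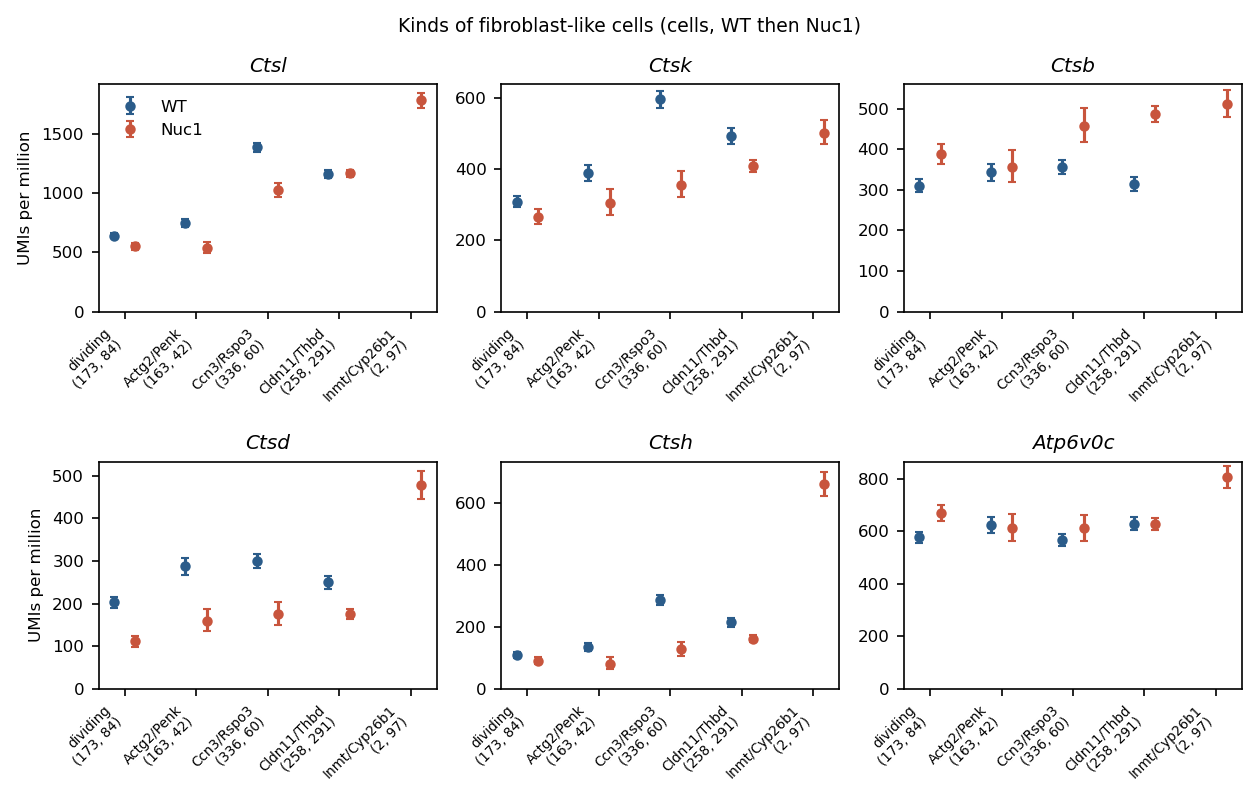
CPM of 5 cathepsins and of Atp6v0c in kinds of fibroblast-like cell, for the WT and Nuc1 libraries, with 95% counting intervals and the numbers of cells under each kind; the 2 WT Inmt/Cyp26b1 cells are not drawn. Ctsd is lower in the Nuc1 library in the dividing, Ccn3/Rspo3, Actg2/Penk and Cldn11/Thbd kinds, and the Nuc1 Inmt/Cyp26b1 cells have a Ctsh level of 661 CPM.

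Dividing fibroblast-like cells held fewer cathepsins than those not dividing, in both libraries. The sum was 1820 against 2902 CPM in WT (-0.67) and 1627 against 3037 in Nuc1 (-0.90), while the pump differed by -0.13 and -0.17. Past 1.5-fold in both libraries, 0 of 27 members were higher and 5 lower (Ctsf, Ctsh, Ctsk, Ctsl and Lamp2), against 8.16% and 8.03% of all genes. Dividing cells were deeper, with medians of 25048 UMIs in WT against 13706 over all fibroblast-like cells.

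Other lysosomal genes were taken from a list of 96, of which 92 were in the files. Between genotypes, 7 of 76 counted were higher and 4 lower in Nuc1 astrocyte-like cells, against 7.97% and 18.7% of all genes. The cholesteryl ester hydrolase Lipa was at 40.1 CPM in WT and 130 in Nuc1, and Cst3, the secreted inhibitor of cysteine cathepsins, at 3180 and 8440. Sidt2, a nucleic acid transporter of the membrane, was at 271 and 124 CPM and Naglu, a hydrolase of heparan sulfate, at 26.5 and 14.6. In fibroblast-like cells 9 of 85 were higher and 2 lower, against 12.9% and 10.8% of all genes. Slc38a9, an amino acid sensor, was at 25.5 CPM in Nuc1 against 11.3 in WT. The mannose 6-phosphate receptor gene Igf2r, which sorts hydrolases to the lysosome, was at 117 against 173, within 1.5-fold. Its ratio was the lowest among genes of the list with at least 100 UMIs, so both genes called lower had fewer UMIs.

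Between cell groups, 20 of 81 genes of the list were higher and 13 lower in astrocyte-like than in fibroblast-like cells in both libraries, against 14.1% and 25.5% of all genes. The acid phosphatase Acp5, also an osteoclast marker, followed Ctsk, with 2 and 3 UMIs in astrocyte-like and 1020 and 784 in fibroblast-like cells. In WT macrophage-like cells 26 of 40 were higher than in fibroblast-like cells and 4 lower, against 9.65% and 60.2% of the 3950 genes counted. The asparaginyl endopeptidase Lgmn, which processes cathepsins, was 39.1-fold and Grn, encoding progranulin, 18.2-fold higher. In dividing cells 0 of 79 were higher and 12 lower in both libraries, against 8.16% and 8.03% of all genes.

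The members with few UMIs complete the set. Atp6v1c2 (217 UMIs) and Atp6v1g2 (221) are described above. Atp6ap1l (35), Ctss (31), Atp6v0e2 (26), Ctsw (21), Atp6v0a4 (18), Atp6v1e2 (11), Atp6v1b1 (6), Atp6v0d2 (3), Atp6v1fnb (1) and Lamp3 (1) were at the edge of detection. Atp6v0a4 and Atp6v1b1 are the kidney forms of their subunits and Atp6v0d2 that of osteoclasts, and Atp6v1fnb is named for its place beside Atp6v1f and is no known subunit. The remaining abundant pump members lay within 1.5-fold between the genotypes in fibroblast-like and astrocyte-like cells. Atp6v1f was at 223 and 205 CPM in fibroblast-like cells and at 216 in both astrocyte-like groups. Atp6v0e1 was at 304 and 322 and at 344 and 382. Atp6v0a1, Atp6v1c1 and Atp6v1h lay between 27.6 and 47.1 CPM in both groups and libraries. The accessory proteins Atp6ap1 and Atp6ap2 were at 85.9 and 73.9 CPM in WT fibroblast-like cells and at 99.2 and 103 in WT astrocyte-like cells. The accessory genes together, Atp6ap1l included, summed to 160 CPM in WT and 187 in Nuc1 fibroblast-like cells. In astrocyte-like cells the sum was 203 in both libraries.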

How the data were processed

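The authors deposited, for each library, raw counts of UMIs per gene and barcode, without normalization. Per the labels, a 10x 3′ v3.1 kit was used, and the submitters' processing notes name Cell Ranger 3.1.0, STAR 2.7 and Seurat 3.1.0 and 3.1.1. The genome build was not given in the sources used here, so coordinates come only from RefSeq promoters (GRCr8). Members, gene lists and marker gates were chosen with earlier results of these data known.

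Kept cells had 500 or more genes and no more than 20% of UMIs from 13 mitochondrial genes. A marker counted at 2 or more UMIs. Astrocyte-like cells needed 4 of 6 markers (Hspb1, Ckb and Dbi, 3 of the study's 9, were left out because most cells had them), cilia-like 4 of 8, oligodendrocyte-like 3 of 10, macrophage-like 4 of 11, and fibroblast-like 2 of 5 with at least 1000 CPM, near which 14 WT and 65 Nuc1 cells lay (500 to 2000 CPM). Cells meeting both astrocyte and cilia markers were called cilia-like. Dividing cells needed 3 of 6 markers, and a kind of fibroblast-like cell both of its genes. No doublet caller was run; cells of more than 1 group were set aside, and doublets of 1 type can remain.

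UMIs were summed per group and library. Intervals (95%) are exact Poisson, exact binomial (Clopper-Pearson) for shares and exact conditional for ratios. A gene was counted in a comparison with at least 20 UMIs and at least 5 expected in the smaller group, and called at 1.5-fold after 0.5 UMIs were added for all genes. No p-value was computed. Single values are given for the 6 most abundant members of each class, members at least 4-fold higher in 1 group than in each other group of 30 or more cells in both libraries, members past 1.5-fold between genotypes in at least 2 groups, members with 0 UMIs and the extremes of the wider list; any other gene with a value was chosen after its values were seen. Alternatives included other filters, gates, thinning to 5000 UMIs and TMM scaling (edgeR 4.0.16, R 4.3.3). Python 3.11.15, numpy 2.4.6, scipy 1.17.1 and matplotlib 3.10.9 were used. Intervals were tested on data simulated with counting error only, so their coverage of spread between cells or libraries was not tested.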

Additional observations from a re-analysis of the deposited data

Results flagged for a closer look

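The ratio of Nuc1 over WT had different signs in different cell groups for several sums, with counting intervals that did not include 0; the differences between the groups were not tested. For cathepsins the log2 ratio was 0.077 in fibroblast-like, 0.27 in astrocyte-like and 0.33 in cilia-like cells. It was -0.16 in dividing, -0.43 in Ccn3/Rspo3 and -0.38 in Actg2/Penk cells, which are part of the fibroblast-like group. Without the Inmt/Cyp26b1 kind the fibroblast-like cathepsin ratio was 0.015, with an interval of -0.00087 to 0.030 that includes 0. For membrane proteins the log2 ratio was 0.24 in astrocyte-like and 0.37 in cilia-like cells. Among kinds of fibroblast-like cell it was -0.19 in dividing, -0.33 in Ccn3/Rspo3, -0.21 in Actg2/Penk and -0.15 in Cldn11/Thbd cells. For Atp6v1c2 it was 0.81 in fibroblast-like and -1.68 in cilia-like cells.

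Among cells that met no group, which no comparison used, Atp6ap1l stood at 55.3 CPM in the 38 Nuc1 cells (15 UMIs in 2 cells, interval 30.9 to 91.2), against at most 0.140 in any Nuc1 cell group and 0.548 in WT fibroblast-like cells (16 UMIs). In these 38 cells Ttr stood at 133191 CPM.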

How the results depend on the processing

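In the order pump, cathepsins and membrane proteins, log2 ratios below are of class sums; counts are of members past 1.5-fold. In 228 further cases the value of a comparison moved by less than its counting interval, or a count by less than 1.5 times. Of the values of single members and groups, 1157 stayed within their interval, 332 moved beyond it and 2, both of Ctsd, turned direction. Values whose interval includes 0 also took both signs: Ctsl in astrocyte-like Nuc1 over WT was below 0 in 3 of 13 alternatives, membrane proteins in fibroblast-like Nuc1 over WT in 4 of 14, and cathepsins in Nuc1 astrocyte-like over fibroblast-like cells in 7 of 13.

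Limit of 10% mitochondrial UMIs: astrocyte-like Nuc1 over WT gave 7 members higher and 1 lower, 0.078 for the pump and 0.64 for cathepsins; fibroblast-like gave 1 higher and 0 lower, 0.16 for cathepsins and 0.086 for membrane proteins. Astrocyte-like over fibroblast-like gave 0.29 (pump) and -0.35 (cathepsins) in WT and 0.13 (cathepsins) in Nuc1. Macrophage-like cells (3 WT) gave 1.65 (pump) and 3.38 (cathepsins) over fibroblast-like and 1.36 and 3.73 over astrocyte-like cells. Ctsd in astrocyte-like cells turned to 0.056, from -0.15. No WT cilia-like cell was left, so that group has no value.

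Thinning to 5000 UMIs: astrocyte-like 5 higher and 1 lower and 0.18 (pump); fibroblast-like 0 higher, 0.12, 0.11 and 0.079; astrocyte-like over fibroblast-like cathepsins -0.26 in WT and -0.13 in Nuc1, and membrane proteins 1.20 in Nuc1. TMM: astrocyte-like 8 higher and 1 lower, a members' median of 0.35, and 0.33, 0.47 and 0.44; fibroblast-like 2 lower, and 0.047, 0.032 and -0.031; Ctsd in astrocyte-like cells turned to 0.051. Centring on the median of all genes: astrocyte-like median 0.27, and 0.25, 0.39 and 0.36; fibroblast-like 0.071 and 0.056 (pump, cathepsins).

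No minimum of UMIs: 6 higher in astrocyte-like, 6 higher and 4 lower in fibroblast-like cells. A fold of 5 to 4: 8 higher in astrocyte-like, 4 higher and 3 lower in fibroblast-like cells. A fold of 2: 1 higher and 0 lower in each. At least 100 UMIs: 1 lower in astrocyte-like, 1 higher and 0 lower in fibroblast-like cells.

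No cell set aside: cathepsins 0.17 in astrocyte-like Nuc1 over WT; astrocyte-like over fibroblast-like membrane proteins 0.93 in WT and 1.20 in Nuc1, cathepsins -0.070 in Nuc1; macrophage-like cathepsins 2.98 over fibroblast-like and 3.14 over astrocyte-like. Dividing cells left out: astrocyte-like cathepsins 0.19 and membrane proteins 0.18; astrocyte-like over fibroblast-like in Nuc1 -0.057 (cathepsins) and 1.23 (membrane proteins). Cells weighted equally: cathepsins 0.22 in astrocyte-like and 0.11 in fibroblast-like Nuc1 over WT; astrocyte-like over fibroblast-like cathepsins -0.25 in WT, and in Nuc1 0.22, -0.14 and 1.20; macrophage-like over fibroblast-like cathepsins 2.93 and membrane proteins 1.47, and cathepsins 3.19 over astrocyte-like.

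Cells of very high depth left out: fibroblast-like 0 lower and cathepsins 0.061. With 1 more marker: fibroblast-like pump 0.074; astrocyte-like over fibroblast-like cathepsins -0.13 in WT, pump 0.28 in Nuc1. 1 marker fewer: macrophage-like cathepsins 3.11 and 3.28. Without the 1 cell with the most UMIs of each member: astrocyte-like over fibroblast-like cathepsins -0.22 in WT; macrophage-like over fibroblast-like 1.33 (pump), 3.07 (cathepsins) and 1.47 (membrane proteins), and pump 1.14 over astrocyte-like.

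Chosen after seeing the data: astrocyte-like cells under 100 CPM of fibroblast markers (58 WT, 265 Nuc1) gave 1 lower and 0.087 for the pump in Nuc1 over WT; over fibroblast-like cells they gave 0.27 (pump, WT) and 0.035 (cathepsins, Nuc1). Without the Inmt/Cyp26b1 kind, fibroblast-like Nuc1 over WT gave 0.067, 0.015 and -0.045, and astrocyte-like over fibroblast-like in Nuc1 gave 0.28, 0.067 and 1.34. With fibroblast-like cells of no kind, 0 were higher in Nuc1; astrocyte-like over fibroblast-like gave -0.32 (cathepsins) and 0.94 (membrane proteins) in WT and -0.13 and 1.17 in Nuc1, and macrophage-like over fibroblast-like cathepsins 3.03.

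No paired analysis was possible because there is only 1 library for WT and 1 for Nuc1, and for the same reason no replicate could be left out. The macrophage-like group (11 and 1 cells) and the Nuc1 oligodendrocyte-like group (5 cells) limit what can be said of them.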
